A study of Homo sapiens with 6 samples.

Results

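Cholesterol synthesis, uptake and efflux were followed through 33 genes, of 28395 gene IDs in each count file. The genes were chosen by name from their known roles, and all 33 were found by NCBI Gene ID. They comprise 19 enzymes from acetyl-CoA to cholesterol and its isoprenoid side branch, 5 genes that control sterol regulatory element-binding proteins (SREBPs), 4 genes of uptake and intracellular transport, and 5 genes of efflux and its control by the liver X receptors (LXRs). Of these, 32 held enough reads to be tested, and VLDLR did not.

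Cells make cholesterol from acetyl-CoA through mevalonate, farnesyl diphosphate and squalene, and also take it up from lipoproteins. When sterols in the endoplasmic reticulum are low, the escort protein SCAP carries SREBPs to the Golgi, where they are cleaved into transcription factors. SREBP2 then raises the genes of synthesis and uptake. INSIG proteins hold SCAP in the endoplasmic reticulum when sterols are plentiful. Oxysterols, which accumulate when cholesterol is abundant, instead activate LXRs, which raise the efflux pumps ABCA1 and ABCG1 and the ubiquitin ligase MYLIP. The gut epithelium both makes and exports cholesterol.

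The cells were HCT116, an established human colorectal cancer line, grown in medium with fetal bovine serum, which carries lipoproteins. The treated group had 50 nM TR-107, a small-molecule agonist of the mitochondrial protease ClpP, for 24 h (3 libraries). The control group had 0.1% DMSO, the vehicle, over the same 24 h (3 libraries). The labels name no genetic change, batch or date, and the single line limits the result to these cells. Poly(A)-selected RNA was sequenced, with 17264039 to 22243758 gene counts per TR-107 library and 18344471 to 23708135 per DMSO library. Levels are CPM (counts scaled to a common library total) scaled by TMM, which corrects for differences in library composition. The 3 libraries of a group are called biological replicates, but how the cultures were separated is not stated. Each p-value therefore sets the group difference against variation between these libraries alone. For this variation, edgeR also draws on the other genes of the same libraries. In bulk RNA, fewer cells with a transcript and less transcript per cell cannot be told apart.

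Most cholesterol genes were lower after TR-107. By edgeR's quasi-likelihood test at a Benjamini-Hochberg adjusted p under 0.05, 22 of the 32 tested genes fell and 6 rose, against 28.6% and 29.2% of all 13767 tested genes. At least 2-fold falls numbered 13 of 32, against 3.71% of all tested genes, and at least 2-fold rises numbered 1 of 32, against 6.55%. The median log2 fold change (TR-107 over DMSO) was -0.53 over the 32 genes and 0.01 over all tested genes. The groups did not overlap for 27 of the 32, against 62.4% of all tested genes. INSIG1 had the lowest log2 fold change of the 32 and ABCA1 the highest.

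**Figure D1:**
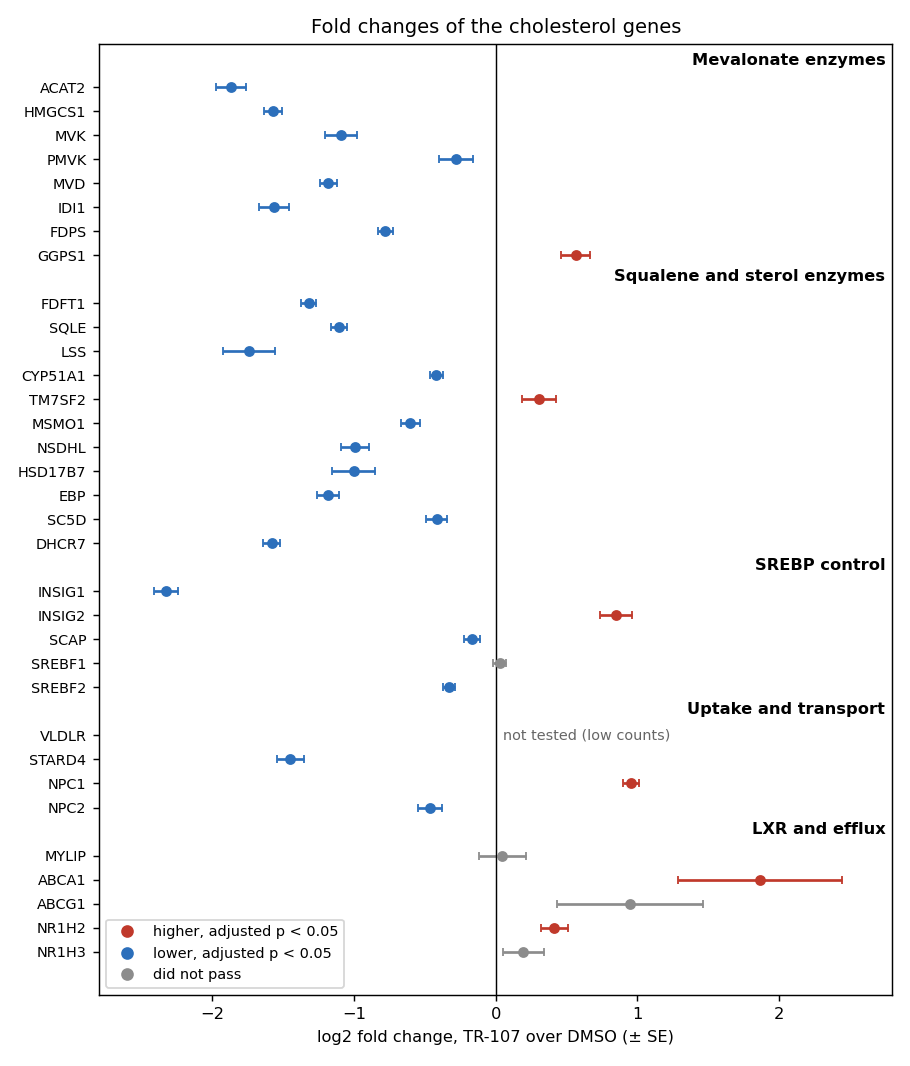
The plot shows the log2 fold change (TR-107 over DMSO) with its SE for each cholesterol gene, grouped by role, with 3 libraries per group. Enzymes lie left of 0 apart from GGPS1 and TM7SF2, and no gene of the LXR group lies left of 0.

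The mevalonate enzymes fell in 7 of 8 cases, against 28.6% of all tested genes, with a median log2 fold change of -1.14, against 0.01. ACAT2, the cytosolic thiolase that joins acetyl-CoA units, had 10.8, 11.8 and 9.88 CPM in TR-107 libraries, against 37.6, 38 and 42.8 CPM in DMSO libraries, and was 3.65-fold lower (log2 fold change -1.87 ± 0.10, SE; edgeR adjusted p = 2.39e-19). HMGCS1, the HMG-CoA synthase of the next step, had 39.2, 39.2 and 38.7 CPM in TR-107 against 114, 112 and 122 CPM in DMSO, and was 2.97-fold lower. Every TR-107 library lay below every DMSO library for both genes. The span of ACAT2 (GRCh38 chromosome 6, 159762045 to 159779112) overlaps TCP1, a chaperonin subunit that fell to 426 CPM in TR-107, against 696 CPM in DMSO, and SOD2, at 61.8 CPM in TR-107 and 83.0 CPM in DMSO. Whether the counting used strand is not given in the sources used here, and the part of these neighbours in the ACAT2 counts was not tested.

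Further along the mevalonate steps, MVK, mevalonate kinase, had 13.2, 11.7 and 15.7 CPM in TR-107 against 29.2, 30.3 and 27.3 CPM in DMSO (2.13-fold lower). MVD, the diphosphate decarboxylase, averaged 43.6 ± 1.42 CPM in TR-107 and 98.8 ± 3.89 CPM in DMSO (SD, n = 3 each). IDI1, the isomerase that makes the reactive isoprene unit, averaged 16.8 ± 2.77 CPM in TR-107 and 49.2 ± 5.82 CPM in DMSO (SD, n = 3 each) and was 2.95-fold lower. Every TR-107 library lay below every DMSO library for these enzymes. The IDI1 span overlaps IDI2-AS1, which held 6, 15 and 1 counts in TR-107 and 27, 18 and 26 in DMSO, and WDR37, which did not pass (281, 331 and 430 counts in TR-107 and 302, 405 and 480 in DMSO). PMVK, phosphomevalonate kinase, which acts between MVK and MVD, was only 1.22-fold lower, with 14.5, 13.8 and 14.2 CPM in TR-107 against 17.5, 16.3 and 18.0 CPM in DMSO (edgeR adjusted p = 0.0416). Its call was lost without any 1 of TR-107 replicates 1, 2 or 3 or DMSO replicates 1 or 3, where adjusted p by edgeR was 0.0560 to 0.115.

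FDPS and GGPS1 sit at the branch point and moved in opposite directions. FDPS, which makes farnesyl diphosphate for both sterols and isoprenoids, had 73.0, 78.0 and 76.1 CPM in TR-107 against 134, 126 and 130 CPM in DMSO (log2 fold change -0.78 ± 0.05, SE). Its copy FDPSP2 held 3, 7 and 0 counts in TR-107 and 5, 25 and 11 in DMSO. GGPS1, which extends farnesyl to geranylgeranyl diphosphate for protein prenylation and makes no sterol, had 30.3, 28.8 and 29.8 CPM in TR-107 against 18.5, 18.2 and 23.4 CPM in DMSO and was 1.48-fold higher (edgeR adjusted p = 8.54e-06). All TR-107 libraries were above all DMSO libraries for GGPS1. Its span overlaps ARID4B, which did not pass the test (48.4 and 45.1 CPM in TR-107 and DMSO; edgeR adjusted p = 0.249).

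Of the 11 enzymes from squalene to cholesterol, 10 fell and 1 rose, against 28.6% and 29.2% of all tested genes, with a median log2 fold change of -1.0, against 0.01. FDFT1, squalene synthase, the committed step to sterols, had 70.2, 68.8 and 66.7 CPM in TR-107 against 177, 159 and 177 CPM in DMSO (2.5-fold lower). SQLE, squalene epoxidase, a flux-controlling oxygenase, had 57.6, 59.2 and 57.9 CPM in TR-107 against 115, 126 and 135 CPM in DMSO. LSS, which closes the sterol rings, had 9.93, 6.63 and 6.99 CPM in TR-107 against 23.5, 21.2 and 33.7 CPM in DMSO, and was 3.35-fold lower with the widest SE of the enzymes (log2 fold change -1.74 ± 0.18). DMSO replicate 3 was the highest LSS library, and all TR-107 libraries were below all DMSO libraries for these 3 genes.

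The enzymes that trim lanosterol were less uniform. CYP51A1, the lanosterol demethylase, which directly follows LSS, averaged 124 ± 4.70 CPM in TR-107 and 166 ± 7.36 CPM in DMSO (SD, n = 3 each), a fall of 1.34-fold. TM7SF2, a sterol reductase, had 17.4, 16.9 and 17.9 CPM in TR-107 against 13.4, 15.5 and 13.4 CPM in DMSO (log2 fold change 0.30 ± 0.12, SE; edgeR adjusted p = 0.0297). It was the only SREBP2 target tested that rose, and it lost the call with library size alone (adjusted p = 0.0894) and without TR-107 replicate 1 (0.0528) or 3 (0.0738) or DMSO replicate 1 (0.121) or 3 (0.110), by edgeR. LBR, the nuclear envelope protein that carries the same reductase activity, fell to 121 CPM in TR-107, against 173 CPM in DMSO.

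MSMO1, NSDHL and HSD17B7 remove the methyl groups of the sterol nucleus in turn, and all fell. MSMO1, the oxidase, averaged 50.5 ± 2.36 CPM in TR-107 and 76.7 ± 0.978 CPM in DMSO (SD, n = 3 each). NSDHL, the decarboxylase, averaged 16.7 ± 1.58 CPM in TR-107 and 33.3 ± 0.663 CPM in DMSO (SD, n = 3 each). HSD17B7, the ketone reductase, had 6.43, 7.78 and 8.76 CPM in TR-107 against 14.2, 14.1 and 17.9 CPM in DMSO. A copy, HSD17B7P2, held 15, 24 and 37 counts in TR-107 and 29, 62 and 21 in DMSO, so the split of reads between the 2 is uncertain.

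At the end of the pathway, EBP, a sterol isomerase, averaged 27.1 ± 1.68 CPM in TR-107 and 61.6 ± 1.80 CPM in DMSO (SD, n = 3 each), 2.27-fold lower. SC5D, a desaturase, averaged 39.5 ± 2.43 CPM in TR-107 and 52.7 ± 1.59 CPM in DMSO (SD, n = 3 each), 1.33-fold lower. DHCR7, the reductase that yields cholesterol, had 47.7, 57.6 and 54.8 CPM in TR-107 against 160, 162 and 158 CPM in DMSO (3.0-fold lower; edgeR adjusted p = 1.29e-25). The falls therefore ranged from 1.22-fold in PMVK to 3.65-fold in ACAT2 over the 17 enzymes that fell. Differences between enzymes were not tested. Summed over the 19 enzymes, the level was 705, 723 and 715 CPM in TR-107 libraries, against 1375, 1377 and 1453 CPM in DMSO libraries.

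**Figure D2:**
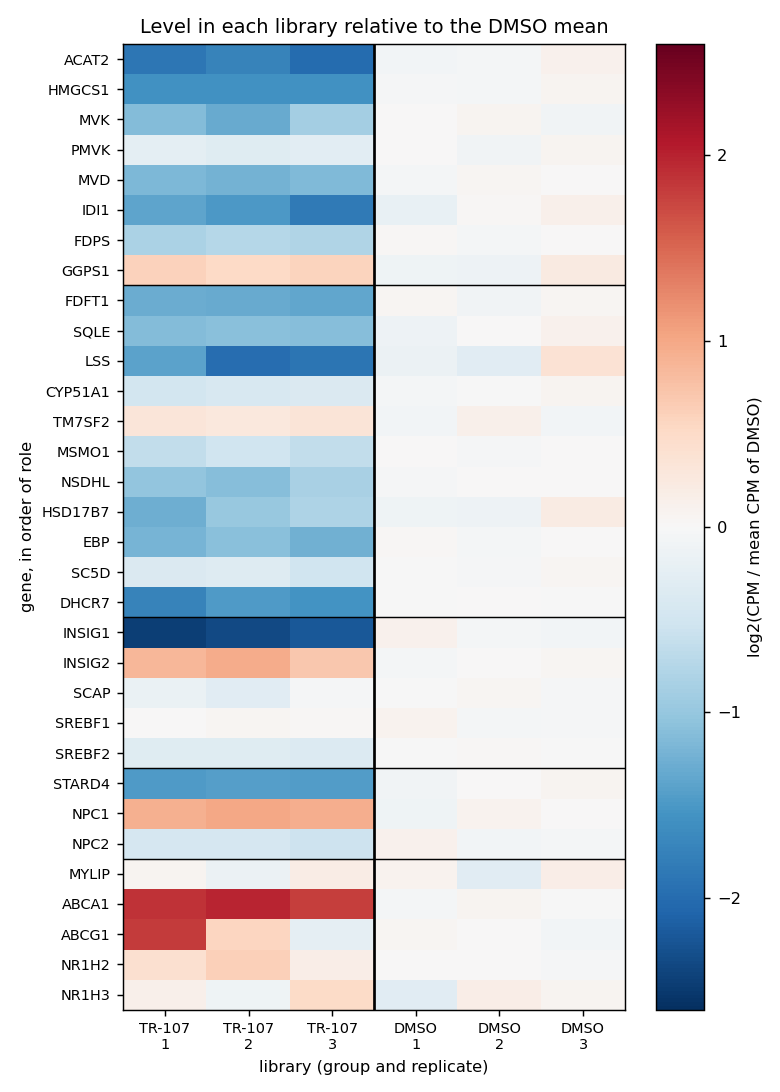
The heat map shows each tested cholesterol gene (rows, in order of role) in each library (columns, TR-107 left of DMSO) as log2 of its CPM over the mean CPM of DMSO. The 3 TR-107 columns are alike in direction for the enzymes, while ABCG1 is highest in TR-107 replicate 1.

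Among the control genes, the INSIG pair moved apart. INSIG1, itself an SREBP target that closes the feedback loop (GRCh38 chromosome 7, 155297878 to 155310235), had 15.0, 16.1 and 17.8 CPM in TR-107 libraries, against 88.6, 79.6 and 78.2 CPM in DMSO libraries. It was 5.02-fold lower (edgeR adjusted p = 2.46e-26, with a log2 fold change of -2.33 ± 0.08, SE), and lay between 4.83-fold and 5.27-fold lower in all 15 alternative settings that gave it a fold. INSIG2 (chromosome 2, 118088471 to 118110997), whose product also holds SCAP, had 25.1, 26.9 and 22.2 CPM in TR-107 against 13.2, 13.8 and 14.2 CPM in DMSO. It was 1.80-fold higher (log2 fold change 0.85 ± 0.11, SE; edgeR adjusted p = 1.72e-08). The groups overlapped for neither gene.

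The ratio of INSIG1 to INSIG2 CPM was 0.599, 0.597 and 0.801 in TR-107 libraries, against 6.73, 5.78 and 5.50 in DMSO libraries. This is a ratio of counts, so it follows each gene's change and not their molar amounts. The exact two-sided permutation p was 0.1 for this ratio and 0.15 adjusted over the 3 ratios computed, and 3 libraries against 3 allow none below 0.1.

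The SREBP transcripts differed less than those of INSIG1 and INSIG2. SREBF2, which encodes SREBP2 (chromosome 22, 41833105 to 41907305), had 211, 210.0 and 204 CPM in TR-107 against 259, 268 and 260 CPM in DMSO, a 1.26-fold fall (log2 fold change -0.33 ± 0.04, SE; edgeR adjusted p = 6.61e-09). SREBF1, which encodes SREBP1, the form that favours fatty acid genes, had 225, 234 and 229 CPM in TR-107 against 238, 217 and 220 CPM in DMSO and did not pass (log2 fold change 0.03 ± 0.04, SE; edgeR adjusted p = 0.629). The SREBF1 groups overlapped, and gene-level counts do not separate its isoforms. Its span overlaps RAI1 (92.2 CPM in TR-107 and 98.7 CPM in DMSO, not called), whose part in the SREBF1 counts was not tested. SCAP had 94.9, 87.2 and 105 CPM in TR-107 against 107, 112 and 105 CPM in DMSO. Its groups overlapped, and its call (log2 fold change -0.17 ± 0.06, SE; edgeR adjusted p = 0.0125) was lost without TR-107 replicate 2 (adjusted p = 0.158). The ratio of SREBF2 to SREBF1 CPM averaged 0.908 ± 0.0248 in TR-107 and 1.17 ± 0.0749 in DMSO (SD, n = 3 each; exact two-sided permutation p = 0.1, adjusted p = 0.15).

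**Figure D3:**
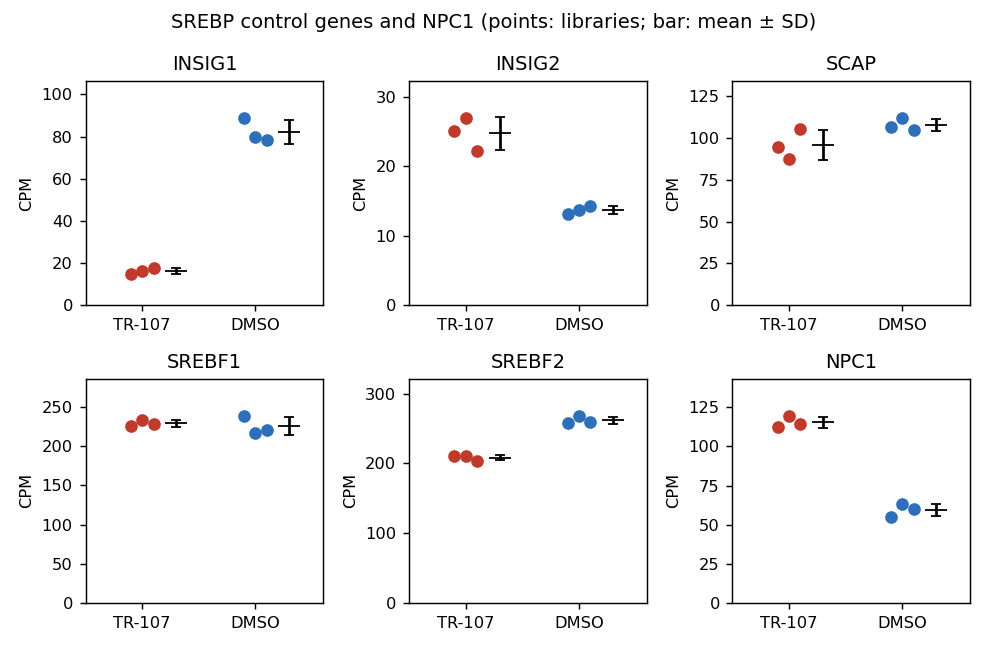
CPM in each library (points) with the mean ± SD (bar, n = 3) for 5 SREBP control genes and NPC1, each on its own axis from 0. INSIG1 is 5.02-fold lower and INSIG2 1.80-fold higher in TR-107, and SREBF1 overlaps between the groups.

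The promoters of SREBF2, INSIG1 and INSIG2 are shown because SREBF2 and INSIG1 are known SREBP targets and INSIG2 moved against them. Those of INSIG1 and INSIG2 were chosen after values and motifs were seen. A link between letters and direction was therefore not tested by this choice. They are RefSeq sequences of GRCh38.p14, read 5′ to 3′ on the gene's own strand from 250 bases before to 50 after an annotated start. Capitals mark TCACNCCA, a short form of the sterol regulatory element, and CCAAT or its reverse ATTGG, the box bound by NF-Y, a known partner of SREBPs. INSIG2 has a pair of overlapping entries, and the one that begins further upstream is given.
SREBF2 (chr22:41832855-41833154, plus strand): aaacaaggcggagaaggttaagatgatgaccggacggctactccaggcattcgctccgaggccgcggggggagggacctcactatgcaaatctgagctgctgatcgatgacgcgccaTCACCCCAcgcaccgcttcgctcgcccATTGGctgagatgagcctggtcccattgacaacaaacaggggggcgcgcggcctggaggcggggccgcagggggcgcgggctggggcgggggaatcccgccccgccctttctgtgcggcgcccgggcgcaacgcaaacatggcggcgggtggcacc
INSIG1 (chr7:155297628-155297927, plus strand): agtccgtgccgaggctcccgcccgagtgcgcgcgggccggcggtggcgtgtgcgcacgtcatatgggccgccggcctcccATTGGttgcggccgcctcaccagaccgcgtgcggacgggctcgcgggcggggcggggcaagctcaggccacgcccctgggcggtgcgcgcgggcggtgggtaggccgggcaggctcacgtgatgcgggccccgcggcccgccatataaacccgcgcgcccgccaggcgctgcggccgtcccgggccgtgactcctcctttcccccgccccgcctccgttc
INSIG2 (chr2:118088221-118088520, plus strand): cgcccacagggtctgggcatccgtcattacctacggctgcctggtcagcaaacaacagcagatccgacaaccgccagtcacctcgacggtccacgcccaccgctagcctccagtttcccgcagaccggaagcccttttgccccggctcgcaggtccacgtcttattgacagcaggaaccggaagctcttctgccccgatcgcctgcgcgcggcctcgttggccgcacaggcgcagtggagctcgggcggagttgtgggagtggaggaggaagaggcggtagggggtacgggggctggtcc
SREBF2 held both motifs, the element at position -133 and the box at -106 relative to the start, INSIG1 held 1 box at -170, and INSIG2 held neither in this window.

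Uptake and transport genes did not move together. STARD4, a soluble carrier that moves cholesterol between membranes and an SREBP2 target, had 14.9, 15.3 and 15.1 CPM in TR-107 against 38.7, 41.6 and 43.5 CPM in DMSO (2.73-fold lower; edgeR adjusted p = 3.75e-17). NPC1, the lysosomal membrane protein that exports cholesterol derived from lipoproteins (chromosome 18, 23506184 to 23586506), had 112, 119 and 115 CPM in TR-107 against 55.1, 63.0 and 60.3 CPM in DMSO (1.94-fold higher; edgeR adjusted p = 6.92e-18). NPC2, the soluble lysosomal protein that hands cholesterol to NPC1, had 30.7, 30.8 and 28.9 CPM in TR-107 against 45.0, 39.6 and 40.4 CPM in DMSO (1.38-fold lower). The groups did not overlap for any of these 3 genes, and the NPC1 and NPC2 values had opposite directions. RMC1, which overlaps the NPC1 span, rose by less (46.9 CPM in TR-107 and 39.4 CPM in DMSO; log2 fold change 0.25), and its part in the NPC1 counts was not tested. VLDLR, a lipoprotein receptor, held 7, 1 and 2 counts in TR-107 and 8, 5 and 2 counts in DMSO, too few to test.

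Of the 5 LXR and efflux genes, 2 rose, 0 fell by edgeR, and 3 did not pass, against calls in either direction for 57.8% of all tested genes. ABCA1, the pump that loads cholesterol onto lipid-poor apolipoprotein, held 21, 24 and 25 counts in TR-107 libraries, against 6, 8 and 8 counts in DMSO libraries. It was 3.65-fold higher (1.24 ± 0.0754 CPM in TR-107 and 0.334 ± 0.0145 CPM in DMSO, SD, n = 3 each; log2 fold change 1.87 ± 0.58, SE; edgeR adjusted p = 0.00538). The groups did not overlap, at no more than 25 counts in any library. ABCG1, the pump that passes cholesterol to high-density lipoprotein, held 50, 22 and 15 counts in TR-107 and 16, 19 and 19 counts in DMSO. TR-107 replicate 1 set most of its difference: the log2 fold change was 0.94 ± 0.51 (SE; edgeR adjusted p = 0.115), 0.20 without that library (adjusted p = 0.808), and 1.32 without TR-107 replicate 3 (adjusted p = 0.0308).

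The receptors were better covered. NR1H2, the widely expressed LXR-beta, had 39.7, 45.6 and 33.1 CPM in TR-107 against 29.9, 29.8 and 29.0 CPM in DMSO (1.33-fold higher; edgeR adjusted p = 0.0002), with all TR-107 libraries above all DMSO libraries. NR1H3, LXR-alpha, had 14.5, 12.3 and 19.0 CPM in TR-107 against 11, 15.0 and 14.1 CPM in DMSO and did not pass (edgeR adjusted p = 0.260). Its span overlaps ACP2 (29.1 CPM in TR-107 and 25.8 CPM in DMSO, not called), whose part was not tested. MYLIP, the LXR-induced ligase that sends lipoprotein receptors for degradation, had 9.41, 8.0 and 10.2 CPM in TR-107 against 9.47, 7.25 and 10.0 CPM in DMSO (log2 fold change 0.04 ± 0.17, SE; edgeR adjusted p = 0.838). NR1H3 and MYLIP overlapped between groups. The ratio of NR1H2 to NR1H3 CPM was 2.73 ± 0.975 in TR-107 and 2.26 ± 0.406 in DMSO (SD, n = 3 each; exact two-sided permutation p = 0.6).

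Set side by side, 20 of 21 SREBP2 targets fell and 1 rose, and 2 of 5 LXR genes rose and 0 fell, against 28.6% lower and 29.2% higher among all tested genes. The count of LXR genes that rose is near that background. The median log2 fold change was -1.11 for the SREBP2 targets (range -2.33 to 0.30), 0.41 for the LXR genes (range 0.04 to 1.87) and 0.01 for all tested genes, whose quartiles were -0.33 and 0.39. Both lists come from textbook knowledge but were chosen with earlier results of these data known, and the counts depend on which genes each list takes in. The lists differ in size and the LXR list holds its 2 receptors, so the counts and medians are a description. The difference between the lists was not tested. The other 7 genes, in neither list, had 3 higher (GGPS1, INSIG2 and NPC1), 2 lower (SCAP and NPC2), SREBF1 not called and VLDLR untested.

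**Figure D4:**
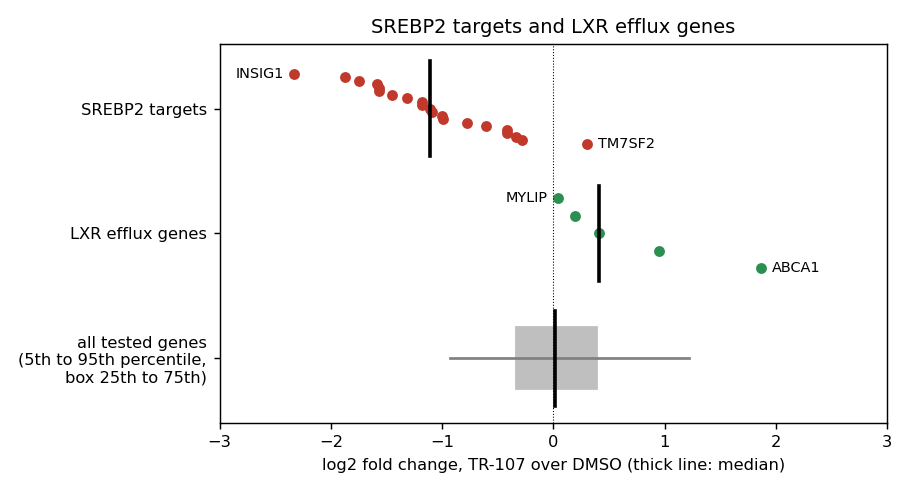
Each point is the log2 fold change (TR-107 over DMSO) of 1 gene among 21 SREBP2 targets or 5 LXR efflux genes, with the list's median as a thick line. The grey box and line give the spread of all 13767 tested genes. The SREBP2 median is -1.11, and 1 target, TM7SF2, lies above 0.

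Promoter letters were then searched on both strands of the same 300-base windows. RefSeq entries matched 29 of the 33 genes, with 41 annotated starts, and ACAT2, FDFT1, SQLE and ABCG1 had none in the table used. CCAAT was found in 18 of 23 promoters of SREBP2 targets (16 of 18 genes), 2 of 7 of LXR genes and 2 of 11 of the remaining genes, against 34.6% of all 35116 promoters. By gene, the background was 10846 of 27305 genes. The SC5D windows overlap and share the same box, so the promoter count takes it in more than once. TCACNCCA was found in 3 of 23 promoters of SREBP2 targets (SREBF2, MVK and MSMO1) and in 0 of 7 of LXR genes, against 3.95% of all. Its longer form TCACNCCAC was found in SREBF2 alone among the members, against 1.13% of all promoters, and every match to it is also a match to the short form. The direct repeat of AGGTCA with NNNN between its copies, a form of the LXR element, and TGATGNAA, a form of the amino acid response element bound by ATF4, were in 0 of 41, against 0.0199% and 3.62% of all promoters. A match is a description of letters. Elements outside the window were not searched, nor were forms that differ from these letters. Only 7 of all 35116 promoters held the exact AGGTCA repeat, so its absence cannot show that an LXR gene lacks an LXR element.

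The promoters of MVK and MSMO1 are shown because they carry the short sterol element among several CCAAT boxes, and those of ABCA1, NR1H2 and MYLIP as the LXR genes with 1 annotated start. Capitals mark the same letters as above.
MVK (chr12:109573544-109573843, plus strand): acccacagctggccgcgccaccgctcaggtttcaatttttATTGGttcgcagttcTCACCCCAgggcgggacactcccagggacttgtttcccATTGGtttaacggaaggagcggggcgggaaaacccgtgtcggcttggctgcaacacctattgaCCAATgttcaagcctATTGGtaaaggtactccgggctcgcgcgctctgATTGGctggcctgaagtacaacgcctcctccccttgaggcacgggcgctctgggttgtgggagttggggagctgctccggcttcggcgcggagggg
MSMO1 (chr4:165327419-165327718, plus strand): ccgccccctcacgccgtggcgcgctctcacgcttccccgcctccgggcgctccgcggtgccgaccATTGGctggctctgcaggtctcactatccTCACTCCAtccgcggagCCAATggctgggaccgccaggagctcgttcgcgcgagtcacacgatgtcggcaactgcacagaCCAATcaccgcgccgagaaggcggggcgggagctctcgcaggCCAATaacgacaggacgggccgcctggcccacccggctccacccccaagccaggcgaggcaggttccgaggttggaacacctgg
ABCA1 (chr9:104928106-104928405, minus strand): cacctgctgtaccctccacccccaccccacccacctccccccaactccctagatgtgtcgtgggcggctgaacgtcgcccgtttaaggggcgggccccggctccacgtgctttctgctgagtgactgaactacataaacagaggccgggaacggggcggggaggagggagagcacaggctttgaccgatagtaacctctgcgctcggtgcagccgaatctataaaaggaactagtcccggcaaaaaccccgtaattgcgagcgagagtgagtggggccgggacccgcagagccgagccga
NR1H2 (chr19:50376207-50376506, plus strand): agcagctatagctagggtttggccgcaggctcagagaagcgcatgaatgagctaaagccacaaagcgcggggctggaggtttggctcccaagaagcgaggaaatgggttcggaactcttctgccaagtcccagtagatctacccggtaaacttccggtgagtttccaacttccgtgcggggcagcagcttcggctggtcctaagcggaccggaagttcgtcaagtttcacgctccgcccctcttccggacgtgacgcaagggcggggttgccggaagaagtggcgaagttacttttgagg
MYLIP (chr6:16128836-16129135, plus strand): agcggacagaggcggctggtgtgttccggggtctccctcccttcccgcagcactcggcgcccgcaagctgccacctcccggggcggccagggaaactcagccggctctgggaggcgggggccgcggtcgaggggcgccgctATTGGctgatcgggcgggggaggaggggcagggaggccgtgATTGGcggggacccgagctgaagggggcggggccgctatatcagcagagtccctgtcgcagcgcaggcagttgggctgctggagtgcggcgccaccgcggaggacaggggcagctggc
MVK held 5 boxes and MSMO1 held 4, with the element at -195 in MVK and -156 in MSMO1. ABCA1 and NR1H2, which rose, held neither the short sterol element nor a CCAAT box, and MYLIP, which did not pass the test, held 2 boxes. Letters and direction did not go together in all members. TM7SF2 (box at -74) and GGPS1 (box at -240 of 1 start) rose, and PMVK and CYP51A1, which fell, held no box. Whether the letters track the change was not tested. Inexact forms of the LXR element were not searched or marked in these sequences. MVK has an overlapping neighbour, MMAB, which fell to 11.8 CPM in TR-107, against 15.3 CPM in DMSO (log2 fold change -0.37).

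**Figure D5:**
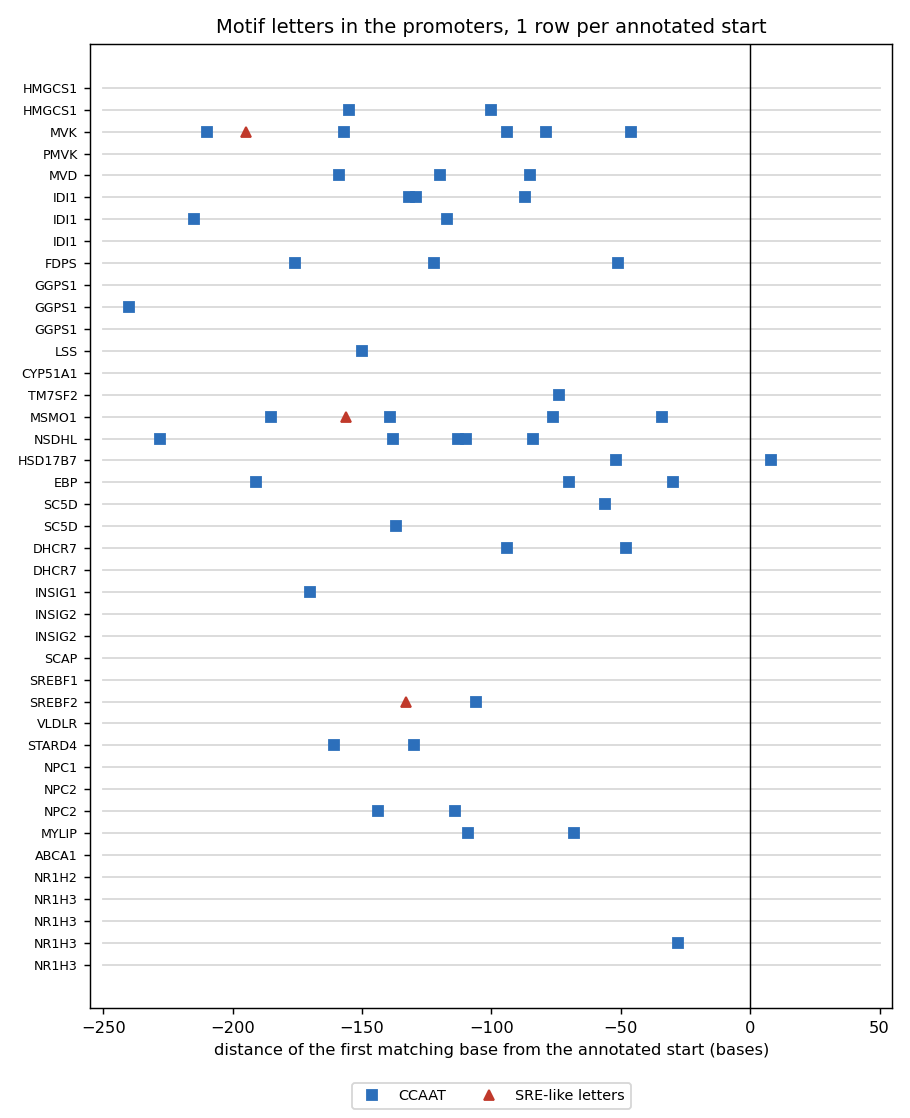
Each row is 1 annotated start of a cholesterol gene, in order of role, and marks show where CCAAT (either strand) or the short sterol element begins, in bases from the start. MVK and NSDHL hold 5 boxes each, several enzyme starts (PMVK and CYP51A1 among them) hold none, and 1 box of HSD17B7 lies after the start.

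Other genes of the pathway were read from lists of neighbours in function. Of 11 genes around the sterol steps, 7 fell and 3 rose, against 28.6% and 29.2% of all tested genes. TMEM97, a sterol-responsive protein that binds NPC1, fell to 40.9 CPM in TR-107, against 107 CPM in DMSO (log2 fold change -1.39), and CYB5B, a cytochrome that feeds electrons to oxygenases, fell to 213 CPM in TR-107, against 570 CPM in DMSO (log2 fold change -1.42). POR, the reductase that supplies CYP51A1 and SQLE, rose to 131 CPM in TR-107, against 93.5 CPM in DMSO, and PLPP6 (log2 fold change 1.17), a phosphatase of presqualene diphosphate, and HSD17B12 (0.32), which acts in fatty acid elongation, rose as well. Of 15 genes of SREBP processing and sterol-linked degradation, 6 rose and 6 fell, against the same background shares (median log2 fold change 0.10). MBTPS1, the site-1 protease that makes the initial cut in SREBPs, rose to 282 CPM in TR-107, against 184 CPM in DMSO (log2 fold change 0.62), with SYVN1 (0.56), a ubiquitin ligase, also higher. RNF145 (-0.52), a sterol-regulated ligase, VCP (-0.45), which extracts proteins from membranes for degradation, and ERLIN1 (-0.32), a membrane scaffold, fell on the log2 scale.

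Of 26 tested genes of 27 in uptake, esterification and transport between membranes, 10 rose and 6 fell, near the 29.2% and 28.6% of all tested genes (median log2 fold change 0.02, against 0.01). GRAMD1B, which moves cholesterol from the plasma membrane to the endoplasmic reticulum, rose to 19.2 CPM in TR-107, against 3.90 CPM in DMSO (4.94-fold). SCARB1, the receptor for high-density lipoprotein, fell to 84.7 CPM in TR-107, against 194 CPM in DMSO (2.29-fold lower). OSBPL8 (0.48), which exchanges lipids at membrane contacts, and VPS13C (0.67), a bridge-like lipid transporter, rose, and LRPAP1 (-0.33), a receptor chaperone, and LIPA (-0.45), the lysosomal lipase, fell on the log2 scale. Of 15 tested genes of 24 LXR targets, partners and oxysterol enzymes, 8 rose and 3 fell, against 29.2% and 28.6% of all tested genes (median log2 fold change 0.19, against 0.01). MLXIPL (0.78), a known LXR target, and the corepressor NCOR1 (0.64) rose, and LPCAT3 (-0.44), also a known LXR target, and HSD3B7 (-1.10), a bile acid enzyme, fell. Of 15 genes of the isoprenoid branches, 5 fell and 2 rose, so that calls were no more frequent than the 57.8% of all tested genes. Those that fell included ICMT (-0.56), which methylates prenylated proteins, DOLK (-0.68), dolichol kinase, and NUS1 (-0.33), a subunit of the enzyme that builds dolichol chains. FNTA (0.50), a farnesyltransferase subunit, and SRD5A3 (0.47), a polyprenol reductase, rose.

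Epithelial markers were present in every library. The 5 epithelial markers summed to 5639 to 5774 CPM in TR-107 and 5135 to 5178 CPM in DMSO, with CDH1 at 153 CPM in TR-107 and 88.3 CPM in DMSO. Of 7 markers of other cell types, PTPRC, CD3E and COL3A1 held 0 counts in every library, and the 7 summed to 26.6 to 31.5 CPM in TR-107 and 18.8 to 21.5 CPM in DMSO, mainly from COL1A1 (17.2 and 14.3 CPM in TR-107 and DMSO) and CD68 (11.8 and 5.57 CPM in the same order). Their part in the cholesterol results was not tested. Mitochondrially encoded genes took 4.62% to 4.99% of counts in TR-107 and 3.56% to 3.92% in DMSO, and leaving them out before scaling gave the same call for all 32 tested cholesterol genes.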

How the data were processed

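Poly(A)-selected RNA of HCT116 cells was measured in 3 TR-107 and 3 DMSO libraries. The authors deposited whole-number read counts per NCBI Gene ID. Per the submitters' processing notes, which give no order or role, the tools were FastQC, Trimmomatic, HISAT2 and featureCounts and the build hg38. The sources used here give no versions, annotation, strand or multi-mapping settings. Symbols, spans and promoters came from RefSeq tables of GRCh38.p14, which named 27745 of 28395 IDs.

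All genes were tested together with edgeR 4.0.16 in R 4.3.3 (TMM, filterByExpr, robust quasi-likelihood fit, group alone, Benjamini-Hochberg at 0.05). SE is the log2 fold change over the root of its F statistic. Groups came from the sample titles. The genes, lists and tests were chosen with earlier results of these data known, so list counts and medians stand beside all tested genes with no list test. All members are named. Of other lists, up to 3 called genes per direction with the smallest p are named (some are not reported here), and marker or neighbouring genes for their overlap. Promoters of INSIG1, INSIG2, MVK and MSMO1 were added after values and motifs were seen. The tests were checked on simulated counts for TR-107 against DMSO with 13622 genes, where 82%, 96% and 100% of changes of 1.5, 2 and 4-fold and 36% of changes of 1.25-fold were called, with 0.0745% of unchanged genes. That simulation changed only a small sample of genes, left out those with the lowest counts, and gave every gene the same dispersion. In the data 57.8% of genes were called, so these rates need not hold there, least of all for genes with few counts. Within groups, chi-square per degree of freedom of library pairs was 4 to 6.21, so no pair lay within sampling noise. Alternatives used DESeq2 1.42.0 and limma 3.58.1, other scalings and filters, the replicate number as a block and leaving out each library. SciPy 1.17.1 gave exact tests of 3 ratios.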

Additional observations from a re-analysis of the deposited data

How the results depend on the processing

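In 15 settings, namely other scaling factors, library size alone, mitochondrial genes left out, other filters, a replicate block, DESeq2, limma-voom and leaving out each library, 26 of 32 tested cholesterol genes had the call and direction of the full fit wherever they were tested. Cholesterol genes called lower numbered 20 to 22 and higher 5 to 6, SREBP2 targets lower 19 to 20 and LXR genes higher 2 to 3. PMVK, TM7SF2, SCAP and ABCG1 changed their call, and uncalled SREBF1 and MYLIP changed sign (log2 fold change of SREBF1 -0.037 with library size alone and -0.0084 to 0.058 when 1 library was left out, and of MYLIP -0.020 with library size alone and -0.096 to 0.13 when 1 library was left out). The cause was not tested. PMVK also lost its call with no filter on low counts (adjusted p = 0.0563).

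A test against 2-fold itself (glmTreat), a stricter question by construction, called 545 genes (385 higher, 160 lower), of which 9 were cholesterol genes, all 9 lower and all SREBP2 targets. It called 0 SREBP2 targets and 0 LXR genes higher, and 4 genes of the other pathway lists, 1 higher and 3 lower. The count of SREBP2 targets called higher was 0 with library size alone, and 0 to 1 when 1 library was left out. Leaving out 1 library gave 26 to 28 called cholesterol genes. Replicate numbers did not pair the libraries: deviations of same-numbered libraries had correlations of -0.0311, -0.0185 and 0.0486. With the replicate number as a block, 28 cholesterol genes were called, 22 lower and 6 higher. Counts limit ABCA1, ABCG1 and VLDLR most.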
